A study of Mus musculus with 4 samples.

Results

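The fibrillar collagen genes measured here were Col1a1, Col1a2, Col3a1, Col5a1, Col5a2, Col5a3 and Col11a1, 7 of the 12394 genes on the array. They were taken as the probe sets whose platform annotation gave exactly 1 gene symbol and that symbol was a member, which found 15 of 20393 such probe sets. RNA of cultured mammary fibroblasts was hybridised to 4 Affymetrix mouse arrays, with 1 array for each of 4 groups and no replicate. All mice were FVB/N and aged 9 weeks. Normal Ets2-present fibroblasts carried Ets2db/loxP, and normal Ets2-null fibroblasts carried Fsp-cre;Ets2db/loxP. PyMT Ets2-present fibroblasts carried PyMT;Ets2db/loxP, and PyMT Ets2-null fibroblasts carried PyMT;Fsp-cre;Ets2db/loxP. The db allele is a conventional knockout of the DNA-binding domain of Ets2, a transcription factor of the ETS family, so the Ets2-present groups also had only a single working copy. PyMT is the polyoma middle T oncogene, driven in mammary epithelium by the MMTV promoter, so the fibroblasts did not themselves receive the oncogene by design. Cre was driven by the promoter of Fsp (fibroblast specific protein 1, the product of S100a4) and was present in the Ets2-null groups alone, so effects of Cre and of Ets2 loss cannot be told apart. The cells came from female mice by gravity separation and were used at the second passage in culture, where fewer collagen-producing cells and less collagen RNA per cell cannot be told apart.

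Fibrillar collagens are the rope-like proteins that give connective tissue its strength. Their chains assemble into helical procollagens inside the cell, are trimmed outside it, and then pack side by side into fibrils. Type I collagen, built from the chains of Col1a1 and Col1a2, is the bulk of most fibrils, and type III, built from Col3a1, is mixed with it in soft tissues. Type V collagen, from Col5a1, Col5a2 and in some tissues Col5a3, starts fibrils and limits their width. Type XI collagen has a like role in cartilage, and its Col11a1 chain is also known from the fibroblasts of carcinomas. Col3a1 and Col5a2 lie next to each other in the mouse genome, with 0 genes annotated between them.

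The members' start regions are shown for the chains that differed most between arrays, Col5a3 and Col11a1, and for Col1a2, a bright chain that differed little. The letters are from RefSeq (GRCm38.p6), 5′ to 3′ on the gene's strand and ending just before the outermost annotated start, and capitals mark GGAA or its complement TTCC, the core that ETS factors bind. The regions are chr9:20815118-20815317 on the minus strand for Col5a3, chr3:114030290-114030478 on the plus strand for Col11a1 and chr6:4505368-4505617 on the plus strand for Col1a2.
Col5a3: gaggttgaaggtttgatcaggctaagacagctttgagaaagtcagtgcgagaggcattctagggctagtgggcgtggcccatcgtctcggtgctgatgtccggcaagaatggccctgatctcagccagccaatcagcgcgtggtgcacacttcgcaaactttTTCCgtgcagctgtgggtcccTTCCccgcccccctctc
Col11a1: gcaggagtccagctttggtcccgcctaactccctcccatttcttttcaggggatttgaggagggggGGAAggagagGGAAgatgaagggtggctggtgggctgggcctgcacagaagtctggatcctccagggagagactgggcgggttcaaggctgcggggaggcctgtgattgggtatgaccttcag
Col1a2: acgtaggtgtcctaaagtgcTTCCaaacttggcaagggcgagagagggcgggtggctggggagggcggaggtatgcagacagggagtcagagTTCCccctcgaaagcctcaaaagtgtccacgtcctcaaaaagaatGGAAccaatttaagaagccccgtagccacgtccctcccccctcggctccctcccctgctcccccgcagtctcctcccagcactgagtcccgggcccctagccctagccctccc

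In windows from 250 bases before to 50 after the start, read on both strands, GGAA stood 2 times at Col5a3, 2 times at Col11a1, 4 times at Col5a1, 5 times at Col1a2 and 5 times at Col3a1; at Col1a2, 3 of these are in the stretch printed. Such letters are common: 96.0% of 32851 windows held at least 1 GGAA, and the median window held 3. Counts as low as those of Col5a3 and Col11a1 were found in 33.7% of windows, and counts up to those of Col1a2 and Col3a1 in 84.3%. The longer ETS motif CCGGAA was in 0 of the 5 member windows and in 14.9% of all windows, and the AP-1 motif TGANTCA was in 0 of them and in 7.81% of all. The CCAAT box stood 2 times at Col1a2, 1 time at Col5a3 and 1 time at Col11a1, and in 37.4% of all windows. Col1a1 and Col5a2 had no window here. These matches are letters in a window, and no binding was measured.

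The values are log2 levels that the authors computed by RMA, a method that corrects background, normalizes the arrays to each other and combines the probes of a probe set. A level can be compared between arrays for the same probe set, not between probe sets. The brightest probe set by mean stood for a gene, which was kept if it reached a log2 level of 4.63 (the 40th percentile of all values, called the filter level below) on 1 or more arrays. This kept 8687 genes, all 7 members among them, and 14 of the 15 member probe sets. Correlations between arrays over the probe sets ran from 0.959 to 0.985, with the PyMT Ets2-null array in the 3 lowest. Because each difference below is between 2 arrays, neither an error nor a p-value can be given. As a gauge of measurement scatter, the differences from the 2 brightest probe sets of the same gene, both with a mean level of at least 10, disagreed with an SD of 0.21 (Ets2 in normal), 0.23 (Ets2 in PyMT), 0.19 (PyMT with Ets2) and 0.23 (PyMT without Ets2) over 441 genes. Without the limit on level, over 3378 genes, the SDs were wider: 0.479, 0.685, 0.513 and 0.701 in the same order. Col5a3 and Col11a1 lay below a level of 10 on all arrays, so the narrower gauge does not cover them. Their differences are to be read against the wider SDs. Both gauges leave out the spread between cultures and animals.

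Of the 7 fibrillar collagens, only Col5a3 and Col11a1 were at least 2-fold apart in any of the 4 comparisons, and they went opposite ways. Col5a3 was high and Col11a1 low in PyMT Ets2-present fibroblasts. Col1a1, Col1a2, Col3a1, Col5a1 and Col5a2, the chains of the main fibrils, stayed within 1.6-fold in all 4 comparisons on all 11 of their probe sets. In total, 11 of the 14 kept member probe sets stayed within 2-fold over all 4 arrays, as the plot of their levels shows.

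**Figure D1:**
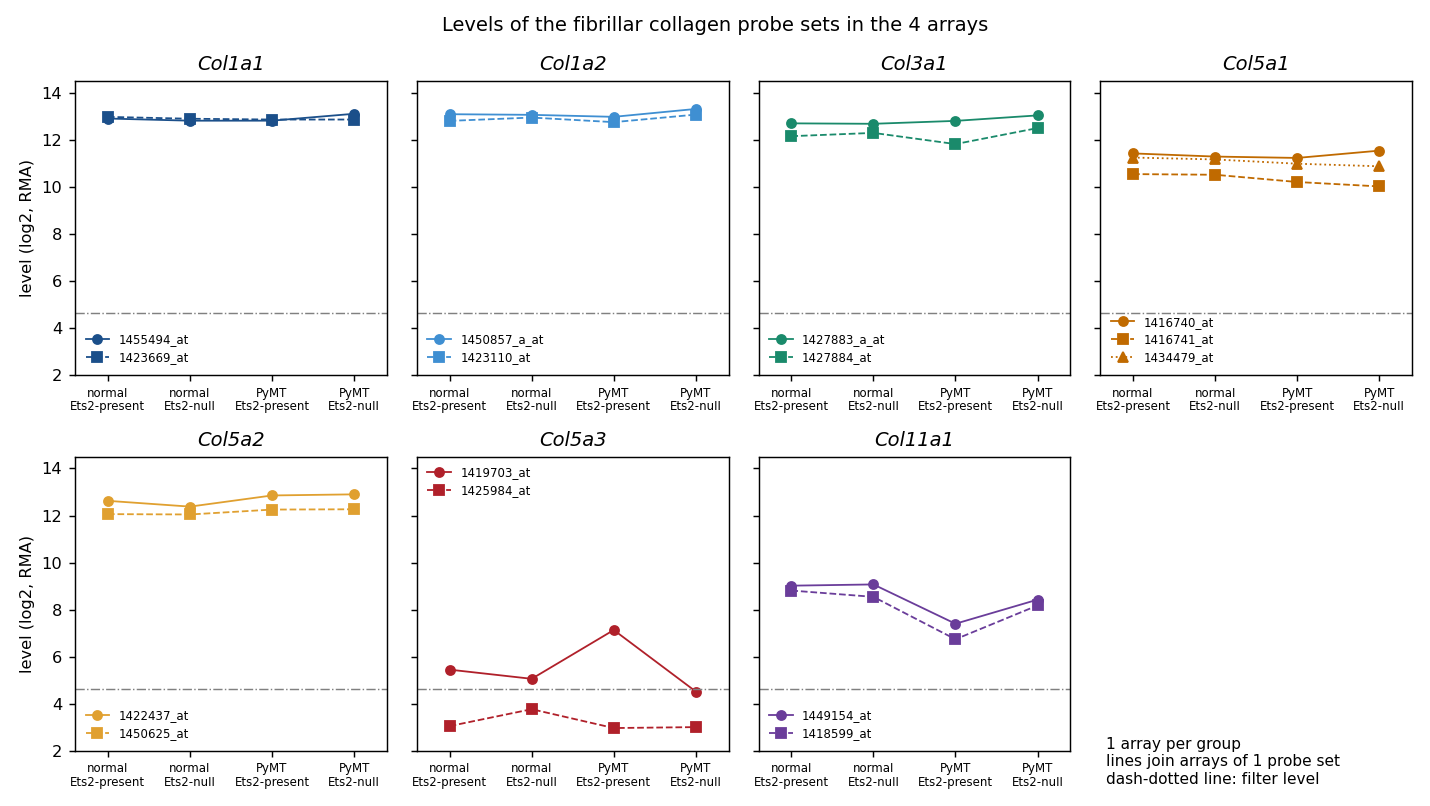
Log2 RMA level (y axis) of every fibrillar collagen probe set in the 4 arrays (x axis), 1 panel per gene, with 1 array per group and lines joining the values of a probe set; the dash-dotted line is the filter level of 4.63. Col5a3 peaks and both Col11a1 probe sets dip in PyMT Ets2-present fibroblasts, while the lines of the other genes are close to flat; heights are not comparable between probe sets.

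Col5a3 encodes the alpha 3 chain of type V collagen. Its brighter probe set (1419703_at) had a log2 level of 5.44 with and 5.05 without Ets2 in normal fibroblasts, and of 7.13 with and 4.51 without it in PyMT fibroblasts. The PyMT Ets2-present array stood above the other 3, and the PyMT Ets2-null array was below the filter level. The level was 6.13-fold lower in PyMT Ets2-null than in PyMT Ets2-present fibroblasts (log2 difference of -2.62). In normal fibroblasts it was 1.31-fold lower without Ets2 (-0.39). PyMT Ets2-present fibroblasts were 3.22-fold above normal Ets2-present fibroblasts (1.69), and PyMT Ets2-null fibroblasts were 1.45-fold below normal Ets2-null fibroblasts (-0.54). The Ets2 difference in PyMT minus that in normal fibroblasts was -2.23. The -2.62 and the 1.69 share the PyMT Ets2-present array and are not independent of each other.

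The dimmer Col5a3 probe set (1425984_at) read 3.042, 3.761, 2.959 and 2.999 in the same order of arrays. All 4 values lay below the filter level, and the probe set was not kept. It did not show the pattern of the brighter one: its Ets2 difference was 0.04 in PyMT and 0.72 in normal fibroblasts. The Col5a3 pattern thus rests on 1 probe set. Col5a3 is also among the genes that the study selected from these arrays, so its difference here is not independent evidence.

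Col11a1 encodes the alpha 1 chain of type XI collagen, and both of its probe sets were lowest in PyMT Ets2-present fibroblasts. The brighter (1449154_at) had a level of 9.02 with and 9.07 without Ets2 in normal fibroblasts, and of 7.40 with and 8.42 without it in PyMT fibroblasts. The other (1418599_at) had 8.81, 8.54, 6.74 and 8.17 in that order. Thus the normal arrays were high, the PyMT Ets2-null array lay between, and the PyMT Ets2-present array was low on both. PyMT Ets2-present fibroblasts were 3.07-fold and 4.21-fold below normal Ets2-present fibroblasts (log2 differences of -1.62 and -2.07). Within PyMT fibroblasts, the level was 2.03-fold and 2.71-fold higher without Ets2 (1.03 and 1.44). In normal fibroblasts the Ets2 differences were 0.05 and -0.27, of opposite sign. Without Ets2, PyMT fibroblasts were 1.57-fold and 1.29-fold below normal fibroblasts. The Ets2 difference in PyMT exceeded that in normal fibroblasts by 0.97 and 1.71, so the brighter probe set fell just short of 2-fold on this measure and the dimmer one passed it.

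Col1a1 encodes the major chain of type I collagen. Its brightest probe set (1455494_at) had a level of 12.91 with and 12.81 without Ets2 in normal fibroblasts, and of 12.81 with and 13.11 without it in PyMT fibroblasts. The other probe set (1423669_at) had 12.98, 12.90, 12.86 and 12.86. The PyMT Ets2-null array was highest on the first and level with PyMT Ets2-present on the second. The Ets2 difference in PyMT fibroblasts was thus 0.29 on one and 0.00 on the other, and that in normal fibroblasts was -0.09 and -0.08.

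Col1a2 encodes the partner chain of type I collagen. Its probe set 1450857_a_at had levels of 13.09, 13.06, 12.98 and 13.31 in that order (normal with and without Ets2, then PyMT with and without it). Its probe set 1423110_at had 12.81, 12.95, 12.75 and 13.07. The PyMT Ets2-null array was highest and the PyMT Ets2-present array lowest on both. Here the probe sets gave like Ets2 differences in PyMT fibroblasts, 0.34 and 0.32, or 1.26-fold and 1.25-fold, while those in normal fibroblasts were -0.03 and 0.14.

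Col3a1 encodes the chain of type III collagen. Its probe set 1427883_a_at had levels of 12.70, 12.68, 12.81 and 13.04 in the same order of groups, and 1427884_at had 12.15, 12.29, 11.82 and 12.50. The PyMT Ets2-null array was again highest on both, but the PyMT Ets2-present array was lowest on the second only. The Ets2 difference in PyMT fibroblasts was 0.23 on the first and 0.68, or 1.6-fold, on the second. In normal fibroblasts these differences were -0.02 and 0.14.

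Of the 6 Col1a1, Col1a2 and Col3a1 probe sets, all but 1423669_at of Col1a1 were highest in the PyMT Ets2-null array. On 1423669_at both PyMT arrays stood below both normal arrays. Against PyMT Ets2-present fibroblasts, 5 of the 6 were higher and 1 was equal, from 0.00 to 0.68. Against normal Ets2-null fibroblasts, 5 of 6 were higher and 1 was lower, from -0.03 to 0.36. In normal fibroblasts, 2 of 6 were higher without Ets2 and 4 were lower, from -0.09 to 0.14. Between PyMT and normal Ets2-present fibroblasts, 1 of 6 was higher and 5 were lower, from -0.34 to 0.11. Most of these differences are near the SD of 0.19 to 0.23 by which 2 bright probe sets of a gene disagree, and the PyMT Ets2-null array enters both comparisons in which the probe sets were mostly higher.

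Col5a1 and Col5a2 encode the alpha 1 and alpha 2 chains of type V collagen. Col5a1 had 3 probe sets that disagreed. Probe set 1416740_at had levels of 11.42, 11.29, 11.23 and 11.54 in the same order of groups, and its Ets2 difference in PyMT fibroblasts was 0.31. Probe set 1434479_at had 11.25, 11.16, 10.98 and 10.87, and 1416741_at had 10.54, 10.51, 10.21 and 10.02. On these probe sets the PyMT Ets2-null array was the lowest, not the highest, with Ets2 differences of -0.11 and -0.19 in PyMT fibroblasts. All 3 Col5a1 probe sets were lower in PyMT than in normal Ets2-present fibroblasts, by differences of -0.19, -0.26 and -0.34.

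Col5a2 probe set 1422437_at had levels of 12.62, 12.38, 12.85 and 12.90, and 1450625_at had 12.06, 12.04, 12.25 and 12.27. Both PyMT arrays stood above both normal arrays on both probe sets. The PyMT differences were 0.23 and 0.19 with Ets2 and 0.52 and 0.22 without it. The Ets2 differences in PyMT fibroblasts were 0.05 and 0.01. The PyMT Ets2-null array was highest on both, as it was for Col3a1, its genome neighbour, but by little over PyMT Ets2-present fibroblasts.

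**Figure D2:**
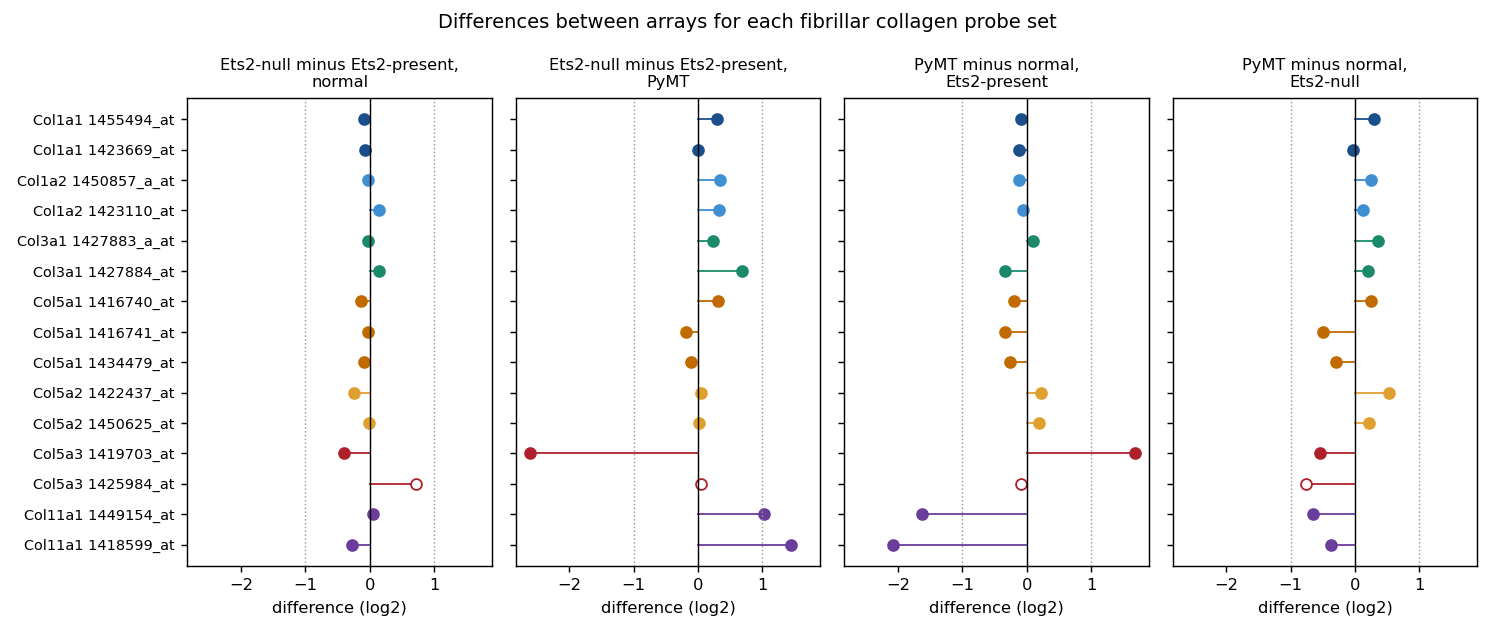
Log2 difference (x axis) of every fibrillar collagen probe set (y axis) in the 4 comparisons, 1 panel each; dotted lines mark 2-fold and open circles the probe set that was not kept. Beyond 2-fold lie Col5a3 (-2.62 and 1.69) and Col11a1 (1.03 and 1.44, and -1.62 and -2.07), and all other points lie within it.

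Counted by their brightest probe sets, the members stood as follows against all kept genes. In normal fibroblasts, 0 of 7 were lower and 0 higher by 2-fold or more without Ets2, where 2.41% of kept genes were lower and 3.02% higher by this measure. In PyMT fibroblasts, 1 of 7 (Col5a3) was at least 2-fold lower without Ets2 and 1 (Col11a1) higher, where 7.77% and 7.64% of kept genes were. Between PyMT and normal Ets2-present fibroblasts, 1 (Col11a1) was lower and 1 (Col5a3) higher, where 6.23% and 5.42% of kept genes were. Between PyMT and normal Ets2-null fibroblasts, 0 members were lower and 0 higher, where 11.2% and 9.69% of kept genes were. For the Ets2 difference in PyMT minus that in normal fibroblasts, 1 member (Col5a3) was at or below -1 and 0 were at or above 1, where 11.2% and 10.2% of kept genes were. A single gene among 7 is too few to set against these shares.

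The median over the 7 members was -0.09 for the Ets2 difference in normal fibroblasts, where that of all kept genes was -0.02. For the Ets2 difference in PyMT fibroblasts it was 0.29 against 0.02, with 6 members higher and Col5a3 lower. For PyMT against normal it was -0.09 against -0.01 with Ets2, and 0.25 against 0.05 without it. The difference of the Ets2 differences had a median of 0.36 against 0.04. These medians are set by the small differences of the bright chains. Bright genes moved little in general: of 1689 kept genes with a mean level of at least 10, 2.31% were 2-fold apart between the PyMT arrays, where 15.4% of all kept genes were, and their median size of difference was 0.21.

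**Figure D3:**
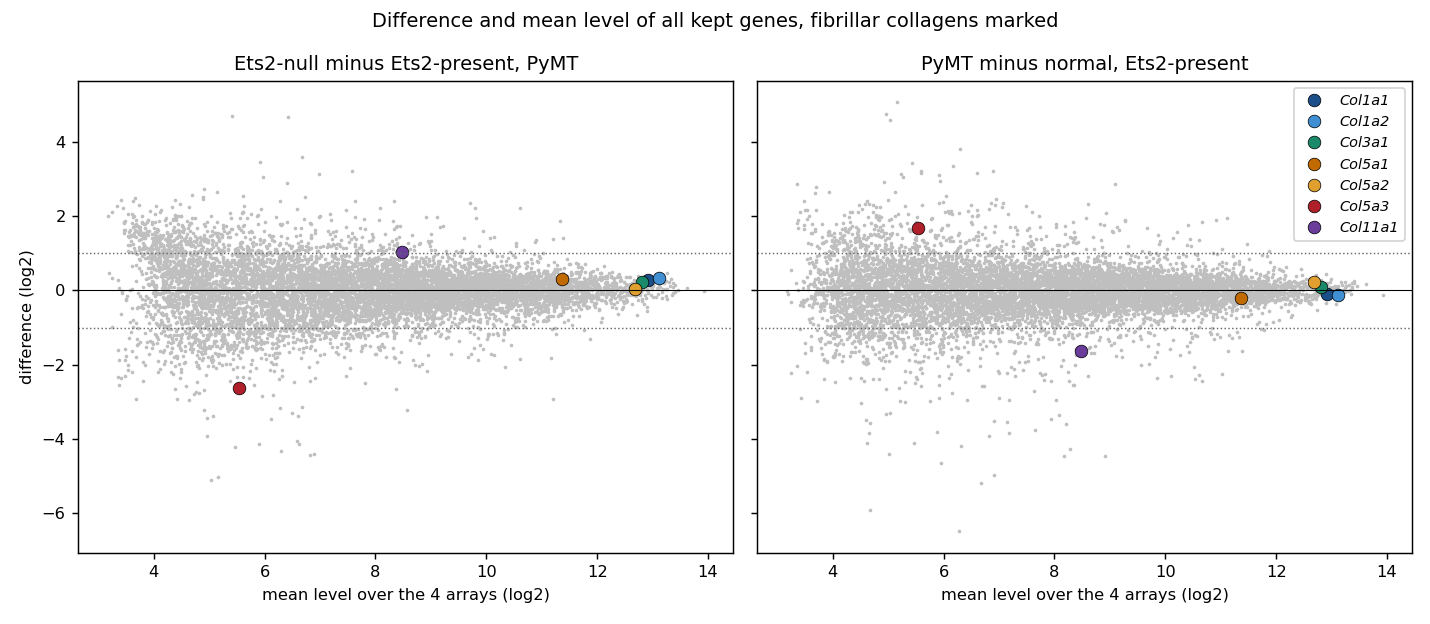
Log2 difference (y axis) against the mean log2 level over the 4 arrays (x axis) for all 8687 kept genes in grey, with the 7 fibrillar collagens in colour, for the Ets2 difference in PyMT fibroblasts (left) and the PyMT difference in Ets2-present fibroblasts (right); dotted lines mark 2-fold. The 5 bright members lie near 0 at the narrow right end, while Col5a3 and Col11a1 lie outside the dotted lines at lower mean levels.

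The kept genes whose profile over the 4 arrays was nearest to that of Col5a3, by the root mean square distance between mean-centred levels over 8680 genes, were Clcf1 (distance 0.18), Creb3l3 (0.21) and Gzme (0.23). Clcf1, a cytokine of the interleukin-6 family, had levels of 5.91, 5.71, 7.53 and 4.67 in the same order of groups. Gzme, a granzyme, had 8.54, 7.96, 10.49 and 7.26. Like Col5a3, both were highest in PyMT Ets2-present and lowest in PyMT Ets2-null fibroblasts. Creb3l3 had 3.22, 2.56, 5.11 and 2.56, so it was kept only through the PyMT Ets2-present array, where it was high. For Col11a1 the nearest were Nfia (0.04), Ap4b1 (0.05) and Aqp1 (0.07). Nfia, a transcription factor of the nuclear factor I family, had levels of 10.57, 10.69, 9.01 and 10.10. Aqp1 had 4.57, 4.66, 3.10 and 3.96, so it barely passed the filter level, in normal Ets2-null fibroblasts alone. With 4 arrays to match on, these distances describe the profiles only.

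Of the other fibril-forming collagens, Col2a1 and Col11a2 were on the array and were not kept. Col2a1, the chain of cartilage collagen, had levels from 2.82 to 3.23, and Col11a2, a partner of Col11a1 in type XI collagen, had levels from 2.61 to 3.45. Neither partner of Col11a1 in cartilage fibrils thus reached the filter level in any array. Col24a1 and Col27a1 had no probe set with a single gene symbol.

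Fibril-associated collagens sit on the surface of fibrils, and 5 of the 9 on the array were kept. Col12a1, which coats type I fibrils, was 2.47-fold lower in PyMT than in normal Ets2-present fibroblasts (levels of 6.94 and 8.24), the same direction as Col11a1. Col14a1 was 2.71-fold and Col16a1 2.59-fold lower in PyMT than in normal Ets2-null fibroblasts. Col9a3 was 2.07-fold higher there, from a level of 4.04, below the filter level. Of all kept genes, 11.2% were at least 2-fold lower and 9.69% higher in that comparison. Between the Ets2-present arrays, 6.23% were lower in PyMT. By Ets2, 0 of the 5 were 2-fold apart in normal and 0 in PyMT fibroblasts, where 5.42% and 15.4% of all kept genes were. The difference of these differences was -1.34 for Col14a1 and -1.10 for Col16a1.

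The enzymes that modify the chains inside the cell were within 2-fold. Among 12 kept genes of prolyl and lysyl hydroxylation and glycosylation, 0 were 2-fold apart in any of the 4 comparisons, with a median of 0.04 for the Ets2 difference in PyMT fibroblasts. Of all kept genes, 5.42% to 20.9% were 2-fold apart in these comparisons, and of those with a mean level of at least 10, 0.296% to 4.03%, so a count of 0 among 12 is not particular to the list. P3h4, a component of the prolyl 3-hydroxylase complex, was the single gene past that size for the difference of the Ets2 differences (-1.16). On that measure 11.2% of all kept genes were at or below -1. Of 12 kept genes of procollagen folding and export, 1 was 2-fold apart: Trappc2, a part of a complex that ships procollagen, was 2.35-fold higher in PyMT than in normal Ets2-null fibroblasts. Without Ets2, 10 of 12 were slightly higher in PyMT fibroblasts (median 0.14, against 0.018 for all kept genes). In normal fibroblasts 10 of 12 were slightly lower (median -0.13, against -0.023). Both list medians are smaller in size than the SD by which 2 bright probe sets of a gene disagree.

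Of 5 kept genes of propeptide cleavage, Bmp1, the procollagen C-proteinase, was 2.05-fold lower without Ets2 in PyMT fibroblasts (8.40 and 7.36). Tll1, a related proteinase, was 2.21-fold lower without Ets2 in normal fibroblasts and 2.75-fold lower in PyMT than in normal Ets2-present fibroblasts. Pcolce2, an enhancer of the cleavage, was 2.32-fold higher in PyMT Ets2-present than in normal Ets2-present fibroblasts, where its level of 3.51 was below the filter level. Without Ets2, 7.77% of all kept genes were at least 2-fold lower in PyMT and 2.41% in normal fibroblasts. Between the Ets2-present arrays, 6.23% were lower and 5.42% higher in PyMT. A single gene among 5 is too few to set against these shares. Of 5 kept cross-linking genes, Loxl4, a lysyl oxidase, was 3.82-fold higher in PyMT than in normal Ets2-null fibroblasts, and 0 were 2-fold apart in the other 3 comparisons. Of all kept genes, 9.69% were at least 2-fold higher between the Ets2-null arrays, and 5.42% to 15.4% were 2-fold apart in the others. For the difference of the Ets2 differences, Loxl4 stood at 1.38 and the transglutaminase Tgm2 at -1.09.

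Fibril organizers bind fibrils and set their width and spacing. Of 18 kept, 3 were lower and 3 higher by 2-fold or more without Ets2 in PyMT fibroblasts, and 0 lower and 3 higher in normal fibroblasts. Of all kept genes, 7.77% were lower and 7.64% higher in the first comparison, and 2.41% and 3.02% in the second. Omd (osteomodulin) and Ogn (osteoglycin), small leucine-rich proteoglycans, were 6.30-fold and 5.07-fold higher without Ets2 in PyMT fibroblasts. Their levels in the order of groups were 5.12, 5.62, 3.58 and 6.24 for Omd and 10.01, 10.43, 8.02 and 10.36 for Ogn. Both were lowest in PyMT Ets2-present fibroblasts, as Col11a1 was, and the Omd level there was below the filter level, so its fold is uncertain. Abi3bp was 2.98-fold and Fmod (fibromodulin) 2.24-fold lower without Ets2 in PyMT fibroblasts.

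Lum (lumican), a proteoglycan that limits fibril width, had levels of 9.26, 11.62, 6.73 and 5.82, and the study selected it from the normal arrays used here. It was 5.14-fold higher without Ets2 in normal fibroblasts, where Dpt (dermatopontin) was 2.66-fold and Abi3bp 2.64-fold higher. Both PyMT arrays were below both normal arrays for Lum, which was 5.79-fold lower in PyMT with Ets2 and 55.8-fold lower without it. Between the Ets2-null arrays, Abi3bp was 9.15-fold, Dpt 8.27-fold and Dcn (decorin) 5.32-fold lower in PyMT. Ogn was 3.97-fold, Omd 2.90-fold and Dcn 2.15-fold lower in PyMT than in normal Ets2-present fibroblasts. For the difference of the Ets2 differences, 5 organizers were at or below -1, with Lum at -3.27, Abi3bp at -2.97 and Dpt at -2.26, and 2 were at or above 1, with Omd at 2.15. Of all kept genes, 11.2% and 10.2% were.

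Among 14 kept genes of collagen degradation and uptake, 4 were at least 2-fold lower and 1 higher without Ets2 in PyMT fibroblasts, and 0 were 2-fold apart in normal fibroblasts. Of all kept genes, 7.77% were lower and 7.64% higher in PyMT fibroblasts, and 5.42% were 2-fold apart in normal fibroblasts. Macrophage markers moved the same way between the 2 PyMT arrays: 7 of 11 kept were lower by 2-fold or more and 0 higher, with a median of -1.39. Their part in the differences of the degradation genes was not tested. Mmp13, a collagenase that cuts fibrillar collagen, had levels of 5.24, 6.16, 9.06 and 4.73 and was 20.1-fold lower without Ets2 in PyMT fibroblasts. Mmp9, a gelatinase, had 6.26, 5.97, 7.74 and 3.60 and was 17.6-fold lower, its PyMT Ets2-null level being below the filter level. Like Col5a3, both were highest in PyMT Ets2-present and lowest in PyMT Ets2-null fibroblasts. Mmp13, Mmp9, Ogn and Gzme, like Col5a3, were selected by the study from these arrays. Fap, a protease of activated fibroblasts, was 5.18-fold lower, and Timp1, an inhibitor of metalloproteinases, 2.48-fold lower in the same comparison, while the membrane metalloproteinase Mmp16 was 2.96-fold higher, from a level of 4.27 below the filter level. Mmp13, Mmp9 and Fap were 14.1-fold, 2.80-fold and 2.20-fold higher in PyMT than in normal Ets2-present fibroblasts, and Mmp16 was 3.48-fold lower. Between the Ets2-null arrays, Mmp9 was 5.15-fold, Mmp13 2.69-fold and Mmp2 2.05-fold lower in PyMT, and the collagen uptake receptor Mrc2 was 2.69-fold higher. For the difference of the Ets2 differences, Mmp13 stood at -5.24, Mmp9 at -3.85, Timp1 at -1.62 and Fap at -1.39.

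Of the collagen receptors, 3 of 6 on the array were kept. Ddr1, a receptor tyrosine kinase that binds collagen, was 2.81-fold higher in PyMT than in normal fibroblasts with Ets2 and 2.33-fold higher without it. Ddr2, which binds fibrillar collagens, had Ets2 differences of 0.12 in normal and 0.15 in PyMT fibroblasts.

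Transforming growth factor beta is the best known inducer of fibrillar collagen genes, and 20 of 21 genes of its pathway on the array were kept. In PyMT fibroblasts, 6 of these were at least 2-fold lower and 1 higher without Ets2, where 7.77% and 7.64% of all kept genes were. The median of this list was -0.27, and that of the fibrillar collagens was 0.29. The part of this pathway in the collagen differences was not tested. Among the ligands, Tgfb1 was 6.26-fold lower (5.72 and 3.07, the latter below the filter level), in the comparison where the macrophage markers were lower too. Inhba, the activin A subunit, was 3.36-fold lower, and Tgfb3 was 2.41-fold lower. The decoy receptor Bambi was 2.65-fold lower, and the signal transducer Smad3 was 2.34-fold higher from a level of 3.92, below the filter level.

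In PyMT against normal Ets2-present fibroblasts, Tgfb3 was 3.64-fold and Tgfb2 2.96-fold higher. The co-receptor Tgfbr3 and the latent binding protein Ltbp1 were 3.58-fold and 3.07-fold lower, and they were 3.90-fold and 3.69-fold lower between the Ets2-null arrays, where Bambi was 3.11-fold lower and Tgfb2 2.51-fold higher. For the difference of the Ets2 differences, Tgfb1 stood at -2.19, Bambi at -2.04, Smad3 at 1.11 and the latent binding protein Ltbp2 at -1.07. In normal fibroblasts 0 of the 20 were 2-fold apart by Ets2, where 2.41% of all kept genes were lower and 3.02% higher. Ccn2 (connective tissue growth factor), a common readout of this pathway, had levels from 12.57 to 13.17, with an Ets2 difference of 0.01 in PyMT fibroblasts. Other genes of the list did differ there: Smad7 was 2.15-fold and Tgfb2 2.3-fold lower without Ets2.

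**Figure D4:**
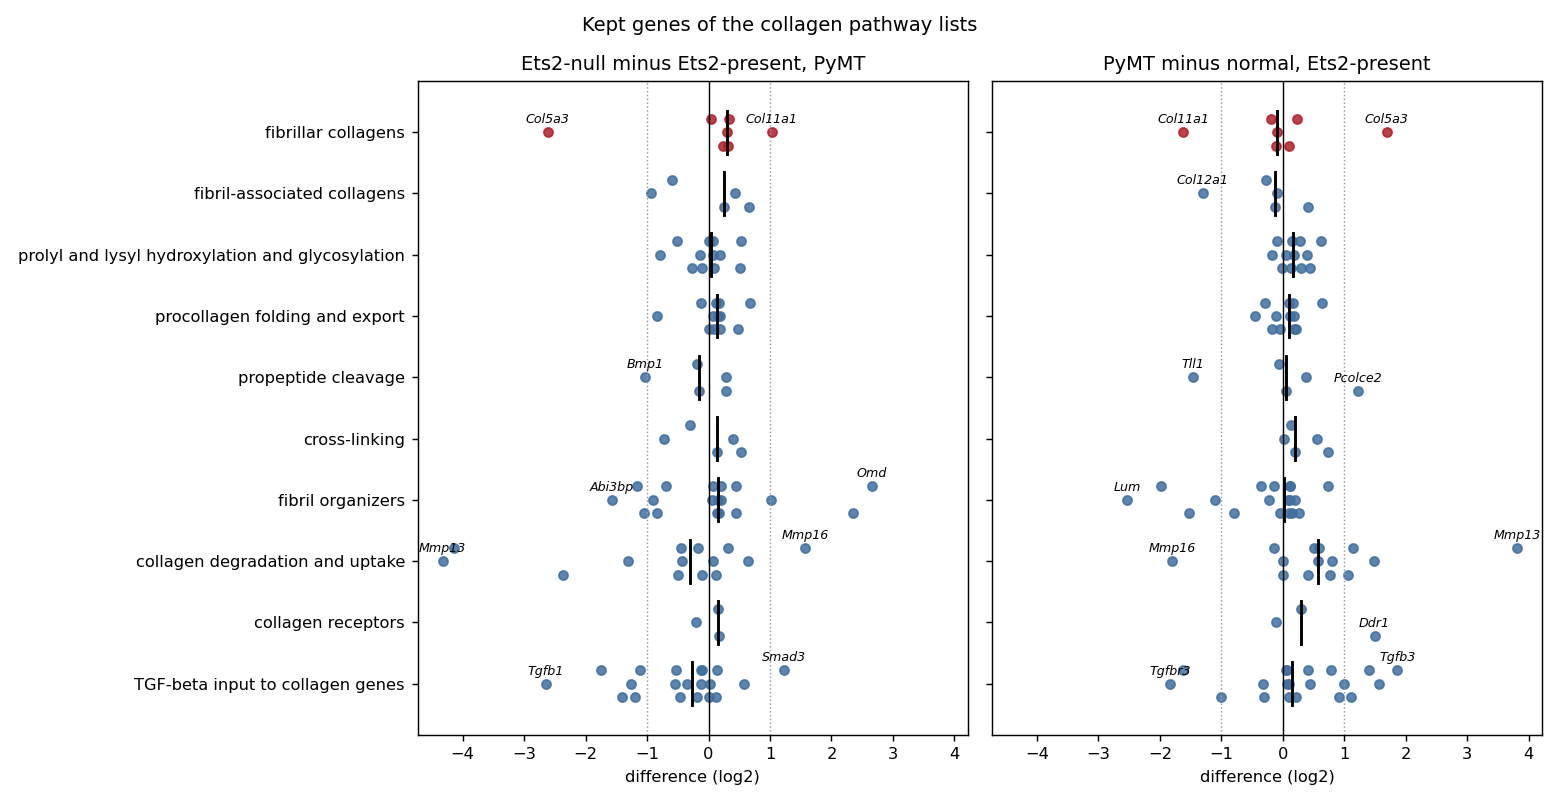
Log2 difference (x axis) of each kept gene of the fibrillar collagens (red) and of the lists around them (blue), with each list's median as a black bar and 2-fold as dotted lines, for the Ets2 difference in PyMT fibroblasts (left) and the PyMT difference in Ets2-present fibroblasts (right). Enzymes of chain modification, folding and export lie within 2-fold in both panels, while organizers reach 2.66 and degradation genes -4.33 on the left.

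Cell type markers were read beside these results. All 10 fibroblast markers lay above the filter level in all 4 arrays, but they did not move together. S100a4 ran from 12.35 to 12.97, while Pdgfra was 3.12-fold lower in PyMT than in normal Ets2-present fibroblasts and 2.66-fold higher without Ets2 in PyMT fibroblasts, and Thy1 was 2.38-fold lower there. Between PyMT and normal Ets2-present fibroblasts, 3 of the 10 were lower and 1 higher by 2-fold or more, where 6.23% and 5.42% of all kept genes were. The log2 of the summed level of 8 myofibroblast markers ran from 14.93 to 15.29. Gene by gene, all 8 were higher in PyMT than in normal Ets2-null fibroblasts, with a median of 0.325 against 0.054 for all kept genes. Of the 8, 2 were at least 2-fold higher there, where 9.69% of all kept genes were. These were Actg2 (4.12-fold) and Des (2.04-fold), the latter from a level of 3.83, below the filter level. Between the Ets2-present arrays, 6 were higher in PyMT and 2 lower. Actg2 alone was at least 2-fold higher there (2.28-fold), where 5.42% of all kept genes were. Of the fibroblast markers, Dcn, Lum, Fbln1 and Fap also stand in the lists above. Of 10 epithelial markers 6 to 8 were below the filter level per array, and of 8 endothelial markers 7 or 8 were. The log2 of the summed level of 12 macrophage markers was 9.16, 9.11, 10.62 and 9.77 in the order of groups, highest in PyMT Ets2-present fibroblasts as Col5a3 was, with 3 to 6 markers per array below the filter level. Lyz2 carried much of that sum in both PyMT arrays (9.13 and 9.09). Gene by gene, 7 of the 11 kept macrophage markers were lower by 2-fold or more without Ets2 in PyMT fibroblasts (median -1.39, with Lcp1 8.93-fold and Msr1 4.87-fold lower), and 7 were higher in PyMT than in normal Ets2-present fibroblasts (median 1.17). Of all kept genes, 7.77% were lower in the first comparison and 5.42% higher in the second. The part of macrophages in the Col5a3 difference was not tested. The log2 of the summed level of 9 tendon and cartilage markers was 10.01, 9.77, 8.66 and 9.68, lowest in the array where Col11a1 was lowest. Of the 3 kept, Sox9 was lowest there too (8.04). Scx was lowest in PyMT Ets2-null (3.86) and Tnmd in normal Ets2-null fibroblasts (4.25), so the list did not move together. Acan, Chad, Col2a1, Col9a1, Comp and Matn3 were below the filter level in all 4 arrays, and the part of this list in the Col11a1 difference was not tested. Pericyte and adipocyte markers were each 5 on the array with 3 kept. Mcam, a pericyte marker, was 3.43-fold higher without Ets2 in PyMT fibroblasts and 13.4-fold higher in PyMT than in normal Ets2-null fibroblasts. In the same comparisons the pericyte marker Rgs5 was 2.11-fold and 4.4-fold higher, while Cspg4 was 2.69-fold and 1.2-fold lower. The adipocyte genes Pparg and Fabp4 were 7.79-fold and 5.0-fold higher in PyMT than in normal Ets2-present fibroblasts, while Adipoq and Lep were below the filter level in all 4 arrays. Of the epithelial keratins, Krt18 was 8.05 in normal and 4.23 in PyMT Ets2-present fibroblasts, and Krt19 was 4.98 and 7.36. The part of these lists in the collagen differences was not tested. Ets2 itself had levels of 11.86, 11.89, 11.21 and 11.22, but where its probe set lies relative to the deleted part is not known, so this checks nothing.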

How the data were processed

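The arrays were 4, with 1 per group, and groups were taken from the sample labels. The deposited values are log2 levels of 22690 probe sets, which the authors computed by the Robust Multichip Average method (RMA); the version is not given in the sources used here, nor is it stated which arrays were normalized together. The platform annotation gave 1 gene symbol for 20393 probe sets, several for 691 and none for 1606. From these, log2 differences between arrays and folds were computed in Python 3.11.15 with numpy 2.4.6 and pandas 2.3.3, and plots were made with matplotlib 3.10.9. With 1 array per group no test was made; the differencing and counting were checked on simulated data. Depth has no meaning for arrays, and their number limits the precision.

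The members and lists were chosen with earlier results of these data known. Named are all members with every probe set, the other fibril-forming collagens on the array, at most the 4 largest kept genes at least 2-fold apart per list and comparison, the 3 nearest profiles of members spanning at least 1 log2 unit, and Ets2. Genes outside this rule (Ddr2, Ccn2, Smad7 and the cell type markers) were named after their values were seen. Alternatives were the mean over probe sets, leaving out probe sets named _x_at or _s_at, no filter, a filter at the 60th percentile (6.78), low values raised to the filter level, quantile and cyclic loess normalization (R 4.3.3, limma 3.58.1), and centring on bright probe sets.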

Additional observations from a re-analysis of the deposited data

Results flagged for a closer look

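Several members had differences of opposite sign under the same contrast in 2 groups. With 1 array per group none of these contrasts could be tested, and nothing here shows that the groups differ. The log2 Ets2 difference was 0.293 in PyMT and -0.092 in normal fibroblasts for Col1a1, 0.336 and -0.027 for Col1a2, 0.233 and -0.019 for Col3a1, 0.31 and -0.134 for Col5a1, and 0.047 and -0.246 for Col5a2. The log2 PyMT difference was 0.294 without Ets2 and -0.091 with it for Col1a1, 0.251 and -0.112 for Col1a2, and 0.252 and -0.192 for Col5a1. For Col5a3 it was -0.541 without Ets2 and 1.686 with it. These are values of each gene's brightest probe set, and the signs were not opposite on all other probe sets. The second probe sets of Col1a2 and Col3a1 were higher without Ets2 in both normal (0.14 and 0.14) and PyMT fibroblasts (0.32 and 0.68). That of Col1a1 had no difference in PyMT fibroblasts, both other Col5a1 probe sets were lower without Ets2 in both, and that of Col5a2 differed by -0.02 and 0.01.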

How the results depend on the processing

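No alternative turned the sign of a member's difference that was 2-fold or more. The medians of the 7 fibrillar collagens kept their sign under all 8 alternatives: from -0.09 to -0.07 (Ets2 in normal), 0.15 to 0.33 (Ets2 in PyMT), -0.10 to -0.08 (PyMT with Ets2), 0.13 to 0.26 (PyMT without Ets2) and 0.23 to 0.38 for the difference of the Ets2 differences. Averaging probe sets, which lets the dim Col5a3 probe set in, left 0 members at least 2-fold higher in PyMT Ets2-present against normal fibroblasts, and 1 for the difference of the Ets2 differences. Col5a3 then had an Ets2 difference of -1.29 in PyMT fibroblasts and a PyMT difference of 0.80. Quantile normalization made the other Col1a1 probe set the brighter, with Ets2 differences of -0.05 in PyMT fibroblasts. Averaging brought that of Col5a1 to 0.00. Among the lists, fibril-associated collagens, of 5 genes, moved most: a median of -0.59 for the Ets2 difference in PyMT fibroblasts and -1.10 for the difference of the Ets2 differences (mean over probe sets, no _x_at or _s_at, or the 60th percentile), and -0.051 for PyMT without Ets2 (no filter). Without _x_at and _s_at probe sets the collagen receptors stood at -0.52 for Ets2 in normal fibroblasts. Stricter handling of low values lowered the shares of kept genes 2-fold apart: at the 60th percentile 0.972% lower and 1.35% higher (Ets2 in normal), and 3.74%, 3.34%, 5.35% and 5.62% higher in the other comparisons, and with low values raised 1.20%, 1.65%, 4.33%, 3.61%, 6.02% and 6.69%. No paired analysis was possible because each group had 1 array. Outside PyMT Ets2-present fibroblasts, the brighter Col5a3 probe set read from 4.51 to 5.44, near the filter level of 4.63. The dimmer one lay well below that level in all 4 arrays, and no detection call was computed.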
